A study of Mus musculus with 6 samples.

Results

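The superoxide dismutases, catalase and the glutathione peroxidases are the enzymes that remove superoxide and peroxides, and 9 of their genes, Sod1, Sod2, Sod3, Cat, Gpx1, Gpx3, Gpx4, Gpx7 and Gpx8, are described here in mouse ventral midbrain. They were taken by gene symbol from 22180 genes with a probe set of their own, each gene being read by its brightest probe set on average. Each of the 9 had exactly 1 probe set of its own, and 0 further probe sets annotated to several genes named any of them. The study measured total RNA of the ventral midbrain, where the dopamine neurons of substantia nigra and ventral tegmental area lie, in male mice 2 months of age on 6 Affymetrix arrays. The 3 arrays labelled Bach1 KO carried RNA of Bach1 knockout mice and the 3 arrays labelled wild type RNA of age-matched mice with the normal gene, and the labels give neither a treatment nor any allele shared by both groups. The strain, the structure of the knockout allele and whether each array held 1 animal or a pool are not stated in the labels, so the p-values measure only a spread between samples that may be technical.

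Superoxide dismutases turn superoxide into hydrogen peroxide. SOD1 uses copper and zinc and sits mainly in the cytosol, SOD2 uses manganese and sits in the mitochondrial matrix, and SOD3 is a secreted copper and zinc enzyme bound to the extracellular matrix. Catalase breaks down hydrogen peroxide in peroxisomes, while the glutathione peroxidases reduce hydrogen peroxide or lipid peroxides, GPX1, GPX3 and GPX4 through a selenocysteine and GPX7 and GPX8 through a cysteine. BACH1 is a heme-binding repressor that competes with NRF2 for elements in the regulatory DNA of heme, iron and antioxidant genes, and dopamine neurons are known for a high load of oxidants from dopamine breakdown and respiration. The comparison addressed whether loss of Bach1 changed the transcripts of this region.

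The bases before the start sites of 3 of the genes are shown because Sod1 was the gene among them with letters of the antioxidant response element, and because Gpx3 and Gpx8 had the highest Pearson r of any pair of these genes over the arrays. Each line holds the 250 bases before the annotated start site, 5′ to 3′ on the gene's strand, from RefSeq (GRCm38.p6), with Sod1 at chr16:90220512-90220761 on the plus strand, Gpx3 at chr11:54902604-54902853 on the plus strand and Gpx8 at chr13:113046389-113046638 on the minus strand. Capitals mark matches to the motifs named below on either strand.

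Sod1: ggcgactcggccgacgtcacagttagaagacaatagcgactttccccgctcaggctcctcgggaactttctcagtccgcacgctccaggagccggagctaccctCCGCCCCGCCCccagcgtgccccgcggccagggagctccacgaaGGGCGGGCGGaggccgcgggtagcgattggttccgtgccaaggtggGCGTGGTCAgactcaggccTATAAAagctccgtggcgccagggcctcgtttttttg

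Gpx3: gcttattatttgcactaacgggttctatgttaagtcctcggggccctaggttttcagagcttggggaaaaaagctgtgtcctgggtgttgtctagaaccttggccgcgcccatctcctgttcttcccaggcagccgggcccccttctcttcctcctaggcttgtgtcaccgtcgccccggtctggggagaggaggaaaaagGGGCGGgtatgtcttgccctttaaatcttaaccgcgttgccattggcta

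Gpx8: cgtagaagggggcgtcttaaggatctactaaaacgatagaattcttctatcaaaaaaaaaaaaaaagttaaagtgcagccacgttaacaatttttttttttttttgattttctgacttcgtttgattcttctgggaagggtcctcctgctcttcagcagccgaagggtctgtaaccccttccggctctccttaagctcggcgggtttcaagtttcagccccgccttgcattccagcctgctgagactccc

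In Sod1 the capitals mark overlapping pairs of GC boxes, 1 antioxidant response element on the minus strand that begins at position -56 from the start site, and 1 TATA box at -37. Gpx3 had 1 GC box at -49, and Gpx8 had no match to any of the 4 motifs. Of the 9 genes, 8 had an entry in the promoter table, with 11 windows in all since Gpx4 had several start sites, and Sod3 was not among them. The antioxidant response element, searched as TGACNNNGC on both strands, was found in 1 of these 11 windows and in 10.2% of 32851 promoter windows of the same length. The Maf and CNC element, TGANTCAGC, which can overlap it, was in 0 of the 11 windows and in 1.02% of all. The GC box GGGCGG was in 8 of the 11 windows and in 32.7% of all, and the TATA box TATAAA in 1 of the 11 and in 12.4% of all. The 8 windows with a GC box had a GC content from 55.2% to 66.4%, beside a median of 52.4% over all windows. The bearing of base content on these shares was not tested. Sod1 and Sod2 had 4 GC boxes, Cat, Gpx3 and Gpx7 had 1 each, and 3 of the Gpx4 windows had 1 or 2, of which 2 windows overlap and hold the same boxes. These matches are letters in a short window and say nothing of binding.

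All values were log2 levels after RMA, which normalizes between arrays, so a level is read within 1 probe set and levels of different genes are not set against each other. All 9 probe sets were brighter than the dim limit used here, a log2 level of 5.07, under which the mean levels of 40% of probe sets lie. The arrays correlated with one another across probe sets with Pearson r from 0.984 to 0.989, probe sets not being independent replicates, and their number limits the precision. All 11 dopamine neuron markers were above that limit, with Th at 11.16 and the dopamine transporter gene Slc6a3 at 11.89 on wild-type arrays, which bears on the labelled tissue. The Bach1 probe set read 7.66 ± 0.0577 on the KO-labelled arrays and 7.54 ± 0.0684 on the wild-type arrays (SD, n = 3), a log2 difference of 0.11 that did not pass (limma, adjusted p = 0.74). A Bach1 probe set outside the deleted stretch would check nothing, so the directions follow the labels. Hmox1, the inducible heme oxygenase and a known target of BACH1, rose 3.85-fold on the KO-labelled arrays (95% interval 3.22 to 4.62, limma, adjusted p = 0.0181), and with any 1 array left out its log2 fold change stayed between 1.88 and 2.03 while its adjusted p was between 0.134 and 0.233. KO-labelled replicate 2 and wild-type replicate 1 stood apart in their meningeal fibroblast markers, at scores of -0.73 and -0.69, where a score averages, over the markers, how far the log2 level lies from its wild-type mean.

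None of the 9 genes passed the test between genotypes. With limma over all probe sets, 0 of 9 passed an adjusted p of 0.05 in either direction, against 0.00726% of 41345 probe sets, all higher, and 0% lower. At an unadjusted p under 0.05 the count was 1 of 9, Gpx3, against 6.51% of 22180 genes, and this count ran from 0 to 3 over the alternatives, with 3 in limma with trend. The 3 KO-labelled and 3 wild-type values overlapped for all 9 genes, whereas 14.3% of genes had no overlap, 6.36% with the KO-labelled values above and 7.94% with them below. Means on the KO-labelled arrays were above the wild-type means for 3 of the 9 genes, against 46.9% of all genes, and below for 6. The median log2 fold change of the 9 genes was -0.077, beside -0.0098 over all genes. All genes include dim ones, whereas these 9 all lie above the dim limit. Of the 15790 genes above it, 6426 had KO-labelled means above wild type and 9364 below, with a median of -0.024. Beside these, the counts of 3 higher and 6 lower among 9 genes are not read as a result about the enzymes. RNA of a whole region was measured, so fewer cells of a type and less RNA per cell cannot be told apart.

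**Figure D1:**
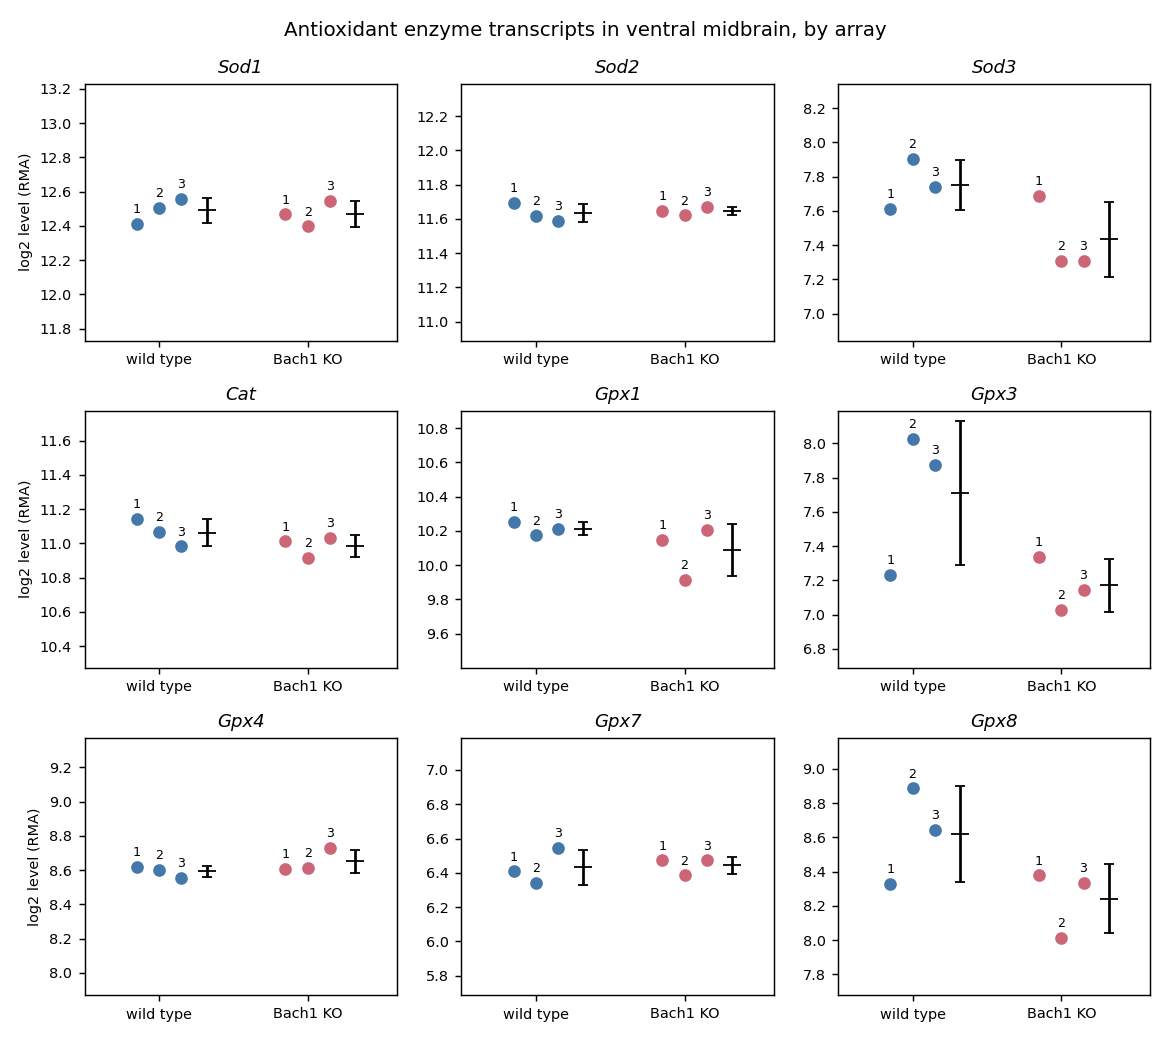
Log2 level (RMA, vertical axis, 1.5 log2 units in each panel) of the 9 antioxidant enzyme genes on each of the 3 wild-type (blue) and 3 Bach1 KO (red) arrays, with replicate numbers beside the points and the group mean ± SD in black (n = 3). The groups overlap in all 9 panels, and Gpx3, Gpx8 and Sod3 spread widest.

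Sod1 and Sod2, the intracellular superoxide dismutases, read almost the same in both genotypes. Sod1 was at 12.47, 12.40 and 12.55 on KO-labelled replicates 1, 2 and 3 and at 12.41, 12.51 and 12.56 on the wild-type arrays. The values interleave, the lowest being KO-labelled replicate 2 and the highest wild-type replicate 3. Sod1 had a log2 fold change of -0.021 (SE 0.0857, 95% interval -0.23 to 0.19, limma, adjusted p = 0.965), an interval that runs from 0.854-fold to 1.14-fold. Sod2 was at 11.65, 11.62 and 11.67 on the KO-labelled and at 11.69, 11.62 and 11.59 on the wild-type arrays. Its KO-labelled values lay inside the wild-type range. Sod2 had a log2 fold change of 0.013 (SE 0.0753, 95% interval -0.17 to 0.20, adjusted p = 0.975). The residual SD of Sod2 around the group means, 0.0414, was at percentile 4.55 of all genes, so its probe set was among the steadier ones.

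Sod3, the secreted dismutase, had a lower KO-labelled mean without passing the test. It was at 7.69, 7.31 and 7.31 on the KO-labelled arrays and at 7.61, 7.90 and 7.74 on the wild-type arrays. KO-labelled replicates 2 and 3 were below every wild-type value, and replicate 1 lay above wild-type replicate 1. The mean of 7.43 ± 0.219 against 7.75 ± 0.147 (SD, n = 3) gave a log2 fold change of -0.32 (SE 0.141, 95% interval -0.66 to 0.024, limma, adjusted p = 0.615). In fold terms the interval runs from 0.633 to 1.02.

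Cat, which encodes the peroxisomal catalase, was close between genotypes. It was at 11.01, 10.91 and 11.03 on the KO-labelled arrays and at 11.14, 11.07 and 10.98 on the wild-type arrays. The lowest value was on KO-labelled replicate 2 and the highest on wild-type replicate 1, with the others mixed. Cat had a log2 fold change of -0.077 (SE 0.0844, 95% interval -0.28 to 0.13, adjusted p = 0.832), or 0.948-fold with an interval of 0.822 to 1.09.

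Among the selenocysteine peroxidases, Gpx1 and Gpx4 differed little and Gpx3 had the lowest fold change of the 9 genes. Gpx1, the cytosolic and mitochondrial enzyme that removes hydrogen peroxide, was at 10.15, 9.92 and 10.21 on the KO-labelled arrays and at 10.25, 10.17 and 10.21 on the wild-type arrays. KO-labelled replicate 2 stood below the other arrays. Gpx1 had a log2 fold change of -0.12 (SE 0.102, 95% interval -0.37 to 0.12, limma, adjusted p = 0.768), which was -0.038 without KO-labelled replicate 2. Gpx4, the enzyme that reduces lipid peroxides in membranes and guards cells against ferroptosis, was at 8.61, 8.61 and 8.73 on the KO-labelled and at 8.62, 8.60 and 8.55 on the wild-type arrays. KO-labelled replicate 3 was the highest and the other values lay close together. Gpx4 had a log2 fold change of 0.058 (SE 0.0785, 95% interval -0.13 to 0.25, adjusted p = 0.872), and its residual SD of 0.0534 was at percentile 9.23 of all genes.

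Gpx3, the secreted peroxidase, was at 7.34, 7.03 and 7.14 on the KO-labelled arrays and at 7.23, 8.03 and 7.87 on the wild-type arrays. Wild-type replicate 1 lay within the KO-labelled range, and the other wild-type values lay above all 3 KO-labelled values. The means were 7.17 ± 0.156 and 7.71 ± 0.423 (SD, n = 3), with a log2 fold change of -0.54 (SE 0.221, 95% interval -1.08 to -0.0048) that did not pass over all probe sets (limma, unadjusted p = 0.0485, adjusted p = 0.6). The exact two-sided permutation test of the same difference gave p = 0.2, where 0.1 is the smallest that 3 against 3 arrays allow. The fold was 0.688, with an interval from 0.475 to 0.997. The value depended on wild-type arrays, with -0.78 without wild-type replicate 1 and -0.38 without wild-type replicate 2 (adjusted p = 0.494 and 0.883). Its residual SD of 0.319 was at percentile 93.3 of all genes.

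Of the cysteine peroxidases of the endoplasmic reticulum, Gpx7 was level and Gpx8 resembled Gpx3. Gpx7, a soluble enzyme linked to oxidative protein folding, was at 6.47, 6.38 and 6.47 on the KO-labelled arrays and at 6.41, 6.34 and 6.54 on the wild-type arrays, so that all KO-labelled values lay inside the wild-type range. Gpx7 had a log2 fold change of 0.011 (SE 0.0881, 95% interval -0.20 to 0.22, adjusted p = 0.982). Gpx8, a membrane protein of the same compartment, was at 8.38, 8.01 and 8.34 on the KO-labelled arrays and at 8.33, 8.89 and 8.64 on the wild-type arrays. Wild-type replicates 2 and 3 were above all KO-labelled values, and wild-type replicate 1 was not. The means of 8.24 ± 0.201 and 8.62 ± 0.279 (SD, n = 3) gave a log2 fold change of -0.38 (SE 0.174, 95% interval -0.80 to 0.045, limma, adjusted p = 0.625). It was -0.26 without KO-labelled replicate 2, -0.52 without wild-type replicate 1 and -0.24 without wild-type replicate 2.

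**Figure D2:**
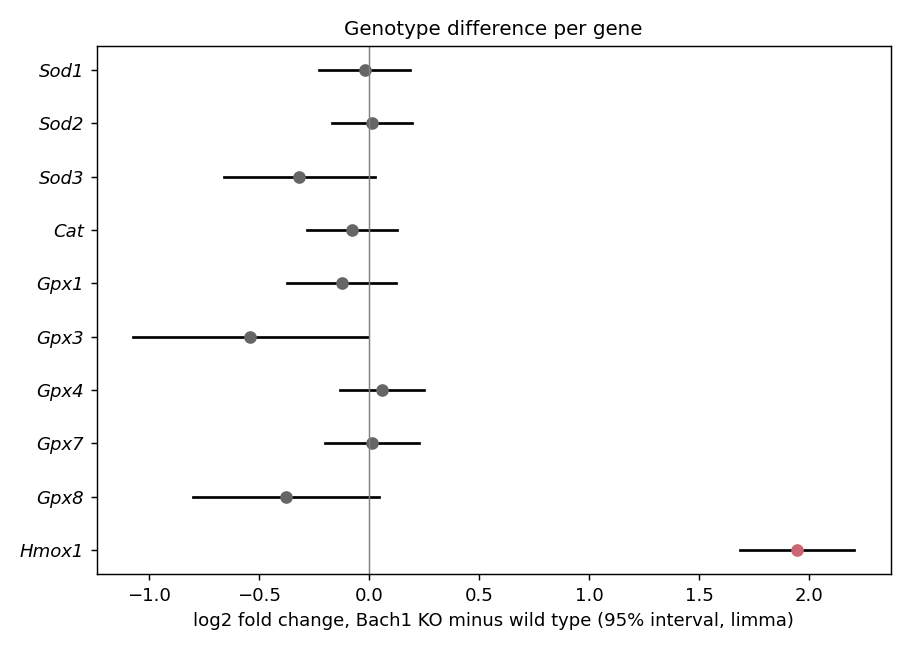
Log2 fold change, Bach1 KO minus wild type (horizontal axis), of the 9 antioxidant enzyme genes and, for scale, Hmox1, with 95% intervals from limma (3 against 3 arrays). Red marks the gene with an adjusted p under 0.05, which is Hmox1 at 1.95, and grey the 9 genes that did not pass.

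The precision differed between the genes. For 6 of the 9, Sod1, Sod2, Cat, Gpx1, Gpx4 and Gpx7, the 95% interval lay within a change of 1.3-fold either way. The intervals of Sod3 and Gpx8 lay within 2-fold, and that of Gpx3 reached beyond it. These limits of fold were chosen after the values were seen. Probe sets as bright as these had small median differences of their own, with -0.044 in the tenth of probe sets around a mean level of 7.59, which held Sod3 and Gpx3, and -0.034 around 8.63, which held Gpx4 and Gpx8.

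Gpx3, Gpx8 and Sod3 had the highest Pearson correlations among the 9 genes, taken over all arrays with the difference between genotypes included. Of the 36 pairs among the 9 genes, 3 had a Pearson r over 0.8 and they were the pairs within this trio, while r over all pairs ran from -0.66 to 0.95. Gpx3 and Gpx8 had r = 0.951 and Spearman rho = 0.943 over 6 arrays (exact permutation p = 0.00278 and 0.0167, adjusted over the 36 pairs 0.1 and 0.3). Without the arrays farthest in Gpx3, wild-type replicates 2 and 3, r was 0.85, and for deviations from each group's own mean it was 0.905. Sod3 and Gpx3 had r = 0.878 and rho = 0.943 (exact permutation p = 0.0361 and 0.0167, adjusted 0.433 and 0.3), with r = 0.901 without the arrays farthest in Sod3. Sod3 and Gpx8 had r = 0.865 and rho = 0.829 (exact permutation p = 0.0222 and 0.0583, adjusted 0.4 and 0.42), with r = 0.966 without those arrays. For deviations from each group's own mean, r was 0.747 for Sod3 and Gpx3 and 0.732 for Sod3 and Gpx8, both below the 0.937 of Sod2 and Cat, so the order of the pairs depends on the measure. Sod2 and Cat had r = 0.661 and rho = 0.543 over the arrays as measured (exact permutation p = 0.157 and 0.297, adjusted 0.744 and 0.713), and r was 0.275 without wild-type replicates 1 and 3. By rho, Sod2 and Gpx4 at 0.886 stood above Sod3 and Gpx8, with r = 0.649 (exact permutation p = 0.0333 for rho and 0.147 for r, adjusted 0.3 and 0.744), and r was 0.841 without the same arrays. Of the 36 pairs, 0 passed after adjustment.

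Scores of meningeal, vessel and astrocyte markers are set beside these genes, since they varied over the same arrays. High correlations with them are thus partly given by that choice. Meningeal fibroblast markers had a lower KO-labelled mean for 10 of 12 genes, and all 12 were above the dim limit. Their score ran from -0.73 to -0.048 over the KO-labelled and from -0.69 to 0.37 over the wild-type arrays. On wild-type replicate 1, where this score was -0.69, Gpx3, Gpx8 and Sod3 deviated from their wild-type means by -0.48, -0.29 and -0.14. Over 6 arrays the meningeal score and Gpx8 had r = 0.897 and rho = 1 (exact permutation p = 0.00417 and 0.00278, adjusted over 81 relations 0.15 and 0.113), and r was 0.848 without KO-labelled replicate 2 and wild-type replicate 2. With Gpx3 the score had r = 0.908 and rho = 0.943 (exact permutation p = 0.0236 and 0.0167, adjusted 0.289 and 0.338), and r was 0.821 without the same arrays. With Sod3 it had r = 0.757 and rho = 0.829 (exact permutation p = 0.0847 and 0.0583, adjusted 0.417 and 0.649), and r was 0.437 without the same arrays. An r without the 2 farthest arrays comes from few points and can move either way. Gpx3 and the microglia score had r = -0.0038 over 6 arrays and 0.993 without KO-labelled replicates 1 and 3. Such values therefore do not show what a relation rests on. For deviations from each group's own mean, r with this score was 0.931 for Gpx8, 0.97 for Gpx3 and 0.733 for Sod3.

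Endothelial and mural markers had a lower mean for 11 of 12 genes, with scores from -0.29 to -0.074 over the KO-labelled and from -0.047 to 0.080 over the wild-type arrays. Of these, Pdgfrb, the pericyte receptor, was at a log2 fold change of -0.30 and the channel subunit gene Abcc9 at -0.24 (limma, unadjusted p = 0.0467 and 0.0549, adjusted p = 0.597 and 0.612). Pdgfrb was the 1 gene of the 12 under 0.05 before adjustment, against 2.71% of genes lower. Abcc9 was 1 of 2 that separated as lower, against 7.94% of genes. The endothelial and mural score and Gpx8 had r = 0.923 and rho = 0.771 (exact permutation p = 0.0194 and 0.103, adjusted 0.289 and 0.649), and r was 0.582 without KO-labelled replicate 2 and wild-type replicate 2. With Gpx3 it had r = 0.776 and rho = 0.829 (exact permutation p = 0.0347 and 0.0583, adjusted 0.352 and 0.649), and with Sod3 r = 0.778 and rho = 0.714 (exact permutation p = 0.0569 and 0.136, adjusted 0.417 and 0.649). Without the same arrays r was 0.57 for Gpx3 and 0.266 for Sod3. This score did not overlap between genotypes, so r over 6 arrays includes that difference. For deviations from each group's own mean, r was 0.852 for Gpx8, 0.552 for Gpx3 and 0.555 for Sod3. Astrocyte markers moved within a narrow range, from -0.059 to 0.060 over all arrays, and their score had r = 0.903 with Gpx3 and r = 0.913 with Gpx8, with rho of 0.829 and 0.943 (exact permutation p = 0.00556 for both r, 0.0583 and 0.0167 for rho, adjusted 0.15 for both r, 0.649 and 0.338 for rho). Without the arrays farthest in that score, wild-type replicates 1 and 2, r was 0.886 and 0.941. Sod3 had r = 0.8 and rho = 0.771 with the astrocyte score (exact permutation p = 0.0486 and 0.103, adjusted 0.417 and 0.649), and r was 0.935 without the same arrays. For deviations from each group's own mean, r with the astrocyte score was 0.948 for Gpx3, 0.944 for Gpx8 and 0.785 for Sod3. Relations of this size were not limited to Gpx3, Gpx8 and Sod3, nor to these scores. Gpx1 and the endothelial and mural score had r = 0.818, and 0.8 without KO-labelled replicate 2 and wild-type replicate 2. Sod1 and the meningeal score had r = 0.764, and 0.73 without the same arrays. With the oligodendrocyte score, Gpx1 had r = 0.791 and Cat 0.763. Without KO-labelled replicate 2 and wild-type replicate 1 these were -0.583 and -0.124. The adjusted exact permutation p was 0.417 for each of these r over 6 arrays. Gpx8 and the microglia score had r = 0.174 over 6 arrays (adjusted exact permutation p = 0.995) and 0.761 for deviations from each group's own mean. The part of these cell types in the values of these genes was not tested. Without both KO-labelled replicate 2 and wild-type replicate 1, an alternative chosen after seeing the data, the log2 fold changes were -0.71 for Gpx3, -0.41 for Gpx8 and -0.33 for Sod3 (limma, adjusted p = 0.645, 0.655 and 0.74).

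**Figure D3:**
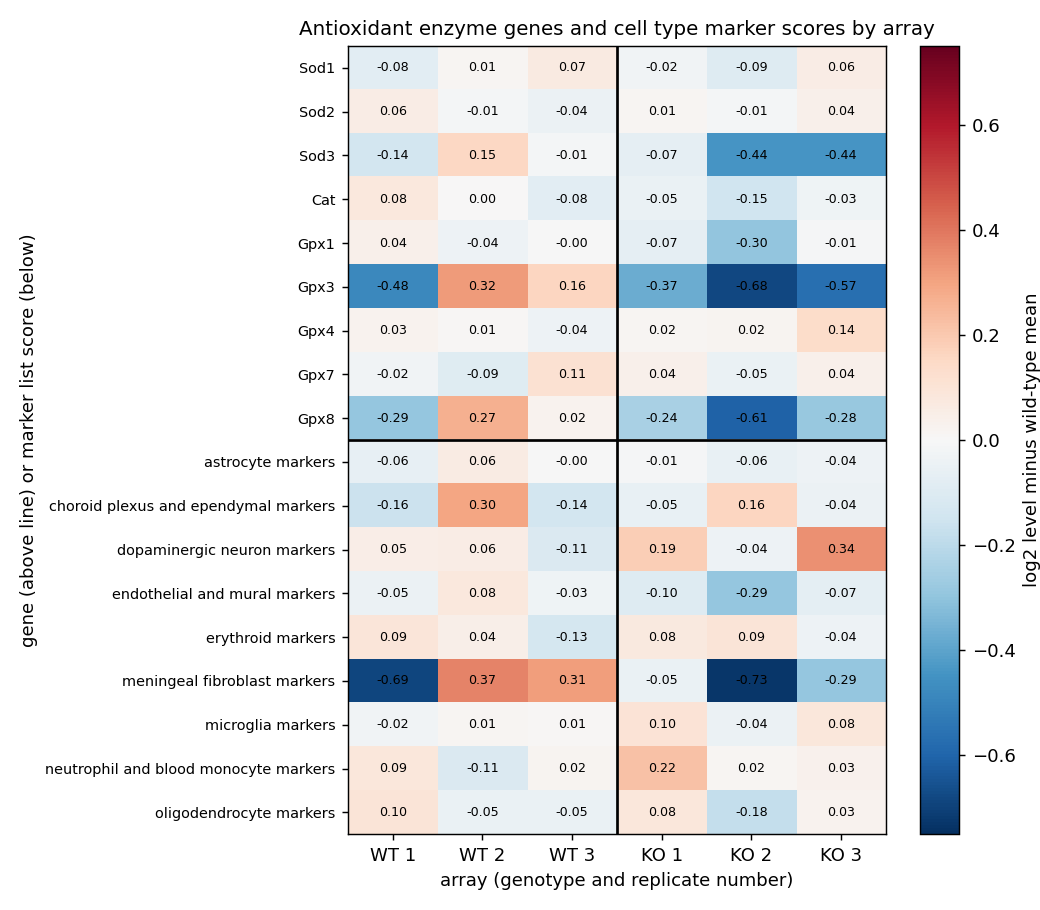
Log2 level minus the wild-type mean (colour and printed value) for the 9 antioxidant enzyme genes (above the line) and for the scores of 9 cell type marker lists (below), on 3 wild-type and 3 Bach1 KO arrays. Gpx3, Gpx8 and the meningeal fibroblast score lie below the wild-type mean on wild-type replicate 1 and on all 3 Bach1 KO arrays, lowest on Bach1 KO replicate 2, and highest on wild-type replicate 2.

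Markers of further cell types were read as well. Microglia markers had a higher mean for 8 of 10 genes (median log2 fold change 0.035), with Cx3cr1 at 0.16 and Trem2 at 0.13. Oligodendrocyte markers had 3 higher and 6 lower among 9 (median -0.017), with Opalin at -0.24 and Ugt8a at 0.17. Choroid plexus and ependymal markers had 4 higher and 4 lower among 8 (median -0.0062). Of these, the cilia gene Tmem212, whose mean level of 4.49 is below the dim limit, was at -0.46, and Ccdc153 at 0.32. Dopaminergic neuron markers had 10 higher and 1 lower among 11 (median 0.17), with Aldh1a1 and Ddc at 0.26, and astrocyte markers 4 higher and 6 lower among 10 (median -0.029), with Gjb6 at -0.19 and Sox9 at -0.12. Neutrophil and monocyte markers had 6 higher and 3 lower among 9 (median 0.085), with S100a9 at 0.36 and Ngp at 0.34, and 1 of the 9 was above the dim limit. Red blood cells carry much catalase and SOD1, and of their markers 2 had a probe set of their own, Bpgm at 0.13 and Slc4a1 at -0.041. Limma called 0 genes of these lists at an adjusted p of 0.05, and of these genes Aldh1a1 and Tmem212 were below 0.05 before adjustment.

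Genes that supply metals and selenium to these enzymes did not pass either. Of 9 measured genes of copper and manganese supply, 5 had higher and 4 lower means, with a median log2 fold change of 0.030, and 0 reached an unadjusted p under 0.05 (limma). Ccs, the chaperone that loads copper into SOD1, read 7.19 ± 0.0677 against 7.09 ± 0.118 (SD, n = 3) and so had a log2 fold change of 0.097 (limma, adjusted p = 0.806). For Cox17, a copper chaperone of mitochondria, the log2 fold change was -0.14 (adjusted p = 0.772). Of 11 genes of selenoprotein synthesis and selenium supply, the mean was higher for 1 and lower for 10, with a median of -0.050, and 0 reached an unadjusted p under 0.05. Eefsec, the elongation factor that delivers selenocysteine to the ribosome, was at 8.31 ± 0.0239 against 8.42 ± 0.00672, with no overlap and a log2 fold change of -0.11 (limma, adjusted p = 0.706). Selenophosphate synthetase paralog Sephs1 was at -0.17 (adjusted p = 0.749). Among 17 other selenoproteins 8 had a higher and 9 a lower mean (median -0.0017), and Selenon, a selenoprotein of the endoplasmic reticulum, separated at a log2 fold change of -0.32 (limma, adjusted p = 0.614). The deiodinase gene Dio3 was at 0.24, at a level of 4.76 on wild-type arrays that is below the dim limit.

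The other routes of peroxide removal were likewise without a called gene. The 3 remaining glutathione peroxidase genes, Gpx2, Gpx5 and Gpx6, were all dim, below that limit, with Gpx5 at 3.63 against 3.24 and Gpx2 at 4.37 against 4.29. Of 9 genes of glutathione supply and recycling, the mean was higher for 4 and lower for 5 (median -0.0086), and 1 in each direction reached an unadjusted p under 0.05, against 3.8% of genes higher and 2.71% lower. Gclm, the regulatory part of the first enzyme of glutathione synthesis, was higher without overlap, at a log2 fold change of 0.30 (limma, unadjusted p = 0.0154, adjusted p = 0.538). Its promoter window held 1 antioxidant response element at -134, an element found in 10.2% of all windows. Sod1, which also held it, was at -0.021. The other list genes were not looked up for the element, and its bearing on the level of Gclm was not tested. Pgd, an NADPH source of the pentose phosphate pathway, was lower without overlap, at 9.67 ± 0.0387 against 9.90 ± 0.102, a log2 fold change of -0.24 (limma, unadjusted p = 0.0315, adjusted p = 0.572). Of 6 measured peroxiredoxin and thioredoxin genes, the mean was higher for 2 and lower for 4 (median -0.030), with the mitochondrial thioredoxin Txn2 at -0.090 and sulfiredoxin Srxn1 at 0.10.

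Sources of superoxide and peroxide were measured beside the enzymes that remove them. Of 13 superoxide sources 7 had higher and 6 lower means (median 0.023). Noxa1, an activator of the NADPH oxidase NOX1, was higher without overlap at 4.78 ± 0.122 against 4.48 ± 0.0456 (log2 fold change 0.30, limma, unadjusted p = 0.0179, adjusted p = 0.543), both below the dim limit. It was the 1 gene of the 13 under 0.05 before adjustment, against 3.8% of genes higher, and the 1 that separated, against 6.36% higher. The oxidase gene Duox2 was at 0.33 (limma, adjusted p = 0.629), with means of 5.27 against 4.94, the wild-type mean being below the dim limit. Of 19 peroxisomal genes the mean was higher for 6 and lower for 13 (median -0.019), and 3 of the 19 separated as lower, against 7.94% of genes. Pex5, the receptor that brings catalase into peroxisomes, was at 6.32 ± 0.136 against 6.53 ± 0.0922 (log2 fold change -0.22, limma, adjusted p = 0.633), and Pipox, a peroxisomal oxidase that makes hydrogen peroxide, at -0.25 (adjusted p = 0.664). Of 9 genes of oxidative folding in the endoplasmic reticulum, the pathway linked to GPX7 and GPX8, the mean was higher for 3 and lower for 6 (median -0.046), with the disulfide isomerase Pdia6 at 0.18 and the sulfhydryl oxidase Qsox1 at -0.22.

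**Figure D4:**
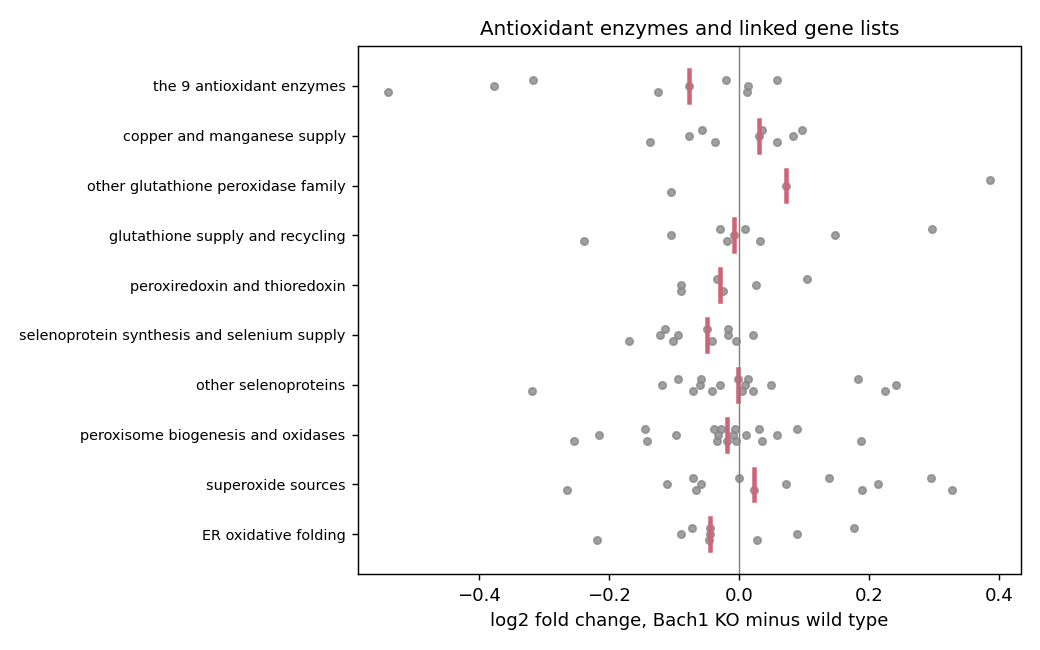
Log2 fold change, Bach1 KO minus wild type (horizontal axis), of each measured gene (grey points, spread vertically for legibility) in the 9 antioxidant enzymes and 9 linked gene lists, with the median of each as a red bar. The lowest point is Gpx3 at -0.54, and the medians lie between -0.077 and 0.072.

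The genes most like each enzyme over the 6 arrays were found among about 9530 genes above the dim limit with an SD over the arrays of at least 0.1, by Pearson r on log2 levels. This is a description with no test, since the best of so many genes over 6 arrays is always high. For Gpx8 they were Slc9b2 (r = 0.998) and Pcdh18 (r = 0.995), and 94 genes exceeded 0.95. For Gpx3 they were Irs4 (r = 0.995) and St8sia2 (r = 0.995), with 88 genes over 0.95, and for Sod3 Zfp395 and Akna (r = 0.992 for both), with 55. For Cat they were 1700007L15Rik (r = 0.997) and Erg (r = 0.994), and for Gpx1 6330409D20Rik (r = 0.995) and Chchd5 (r = 0.994). For Sod1, Sod2, Gpx4 and Gpx7, whose own SD over the arrays was, like that of Cat, below this minimum, the likest were Nap1l5, Erbb3, Zgrf1 and Ly6c2 (r = 0.994, 0.976, 0.995 and 0.979).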

How the data were processed

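The authors deposited log2 expression values for 41345 probe sets on 6 arrays, made with RMA, a method of background correction, normalization between arrays and probe set summary, per the submitters' processing notes, and the log2 scale was read from the values. The RMA software and annotation version were not stated in the labels. The table held 0 columns beyond these arrays. Names of genes came from the platform annotation (1 gene for 23521 probe sets, several for 1814, none for 16010) and were updated by Entrez identifier through a RefSeq table (GRCm38.p6), which matched 23328. All probe sets were tested by limma 3.58.1 in R 4.3.3 (lmFit and eBayes, no covariates, all 6 arrays), two-sided, with Benjamini-Hochberg adjustment over all probe sets, a threshold of 0.05 and 95% intervals. The script was tested on simulated data.

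The genes, lists, named-gene rule and alternatives were chosen with earlier results of these data known. The rule names the 9 genes, Bach1, Hmox1, for each of 18 lists its called genes or else the 2 with the smallest unadjusted p, and the 2 genes most like each enzyme, of which 1 is given for 4 enzymes. Other genes in the text were chosen after their values were seen. Of 204 list genes, 178 had a probe set of their own. Same-numbered arrays of the 2 groups had deviations from the group means that correlated at 0.086, -0.033 and 0.039, so the numbers were not taken to pair the arrays. Alternatives were renewed quantile normalization, median centring, leaving out dim probe sets, limma with trend or robust variances, a replicate block and leaving out arrays.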

Additional observations from a re-analysis of the deposited data

How the results depend on the processing

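The count of 0 of 9 antioxidant enzyme genes called held under every alternative run, with a smallest adjusted p among them of 0.494 (limma, without wild-type replicate 1). The count of probe sets called was 3 with all arrays, 0 with the replicate block, 0 with each array left out in turn (lowest 0, highest 0), and 0 without both KO-labelled replicate 2 and wild-type replicate 1. Unadjusted p-values under 0.05 (limma) numbered 3419 with all arrays, 3352 with the replicate block, 2469 to 4007 with 1 array left out and 3076 without both. Hmox1 passed with all arrays but not with the replicate block (adjusted p = 0.544), where its log2 fold change was 1.95 as before. The block changed no call among the 9 genes. Of the 9, the number at an unadjusted p under 0.05 was 1 in the test as reported, 2 with median centring, 2 without wild-type replicate 1, 2 without both arrays, 3 in limma with trend, and 0 with the replicate block, with robust variances, after renewed quantile normalization and without KO-labelled replicate 2 or 3 or wild-type replicate 2 or 3. Sod3, Cat, Gpx1, Gpx3, Gpx4 and Gpx8 kept their sign under every alternative, with log2 fold changes from -0.78 to -0.38 for Gpx3, -0.52 to -0.24 for Gpx8 and -0.44 to -0.24 for Sod3. Sod2 became -0.034 and Gpx7 -0.036 when arrays were centred on their medians. With 1 array left out Sod1 ran from -0.061 to 0.016, Sod2 from -0.0087 to 0.042, Gpx7 from -0.033 to 0.067 and Slc4a1 from -0.17 to 0.11, and the cause was not tested. Taking the mean over a gene's probe sets changed nothing, since each enzyme gene had 1. The exact permutation test gave the 9 genes p-values from 0.2 to 1.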

Other observations

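Among the 81 relations between an enzyme gene and a marker score, Gpx4 and the dopaminergic neuron score had r = 0.871 and Spearman rho = 0.543 over 6 arrays (exact permutation p = 0.025 and 0.297, adjusted 0.289 and 0.777). Without KO-labelled replicate 3 and wild-type replicate 3, the arrays farthest in that score, r was -0.414, from too few arrays to show what the relation rests on. Sod1 and the erythroid score, which holds 2 genes, had r = -0.88 and rho = -1 (exact permutation p = 0.0153 and 0.00278, adjusted 0.289 and 0.113), and r was -0.954 without the arrays farthest in the score, wild-type replicate 3 and KO-labelled replicate 3. Of the 81 relations, 0 passed after adjustment. KO-labelled replicate 2 was the lowest of all 6 arrays for 5 of the 9 enzyme genes, and it was below the wild-type mean for 8 of them. The same shares over all genes are not given, so these counts are not read as particular to the enzymes. Over all probe sets this array had the highest median, 5.69, and the smallest SD, 2.36, of the 6 arrays. The bearing of this on the counts was not tested.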
